A study of Brassica rapa with 6 samples.

Results

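Carbonic anhydrases interconvert carbon dioxide and bicarbonate, and plants carry unrelated alpha, beta and gamma classes of the enzyme. In Arabidopsis leaves the beta forms are abundant soluble proteins of the mesophyll and also take part in the closing of stomata by carbon dioxide, while gamma forms are built into respiratory complex I of the mitochondrion as subunits of a matrix-side domain. Alpha forms are mostly secreted or associated with membranes, and the functions of many of them are not settled. The family was examined here in Chinese cabbage (Brassica rapa), a leafy vegetable in which the leaf consists of a green blade and a pale, thick petiole.

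A gene belonged to the family when the deposited description of its annotated transcript named carbonic anhydrase. By that rule 28 of 45517 genes were members, and their descriptions placed 5 in the chloroplast and 7 in the mitochondrion and gave no such compartment for the other 16. All 7 mitochondrial genes were gamma forms, 4 of the 5 chloroplastic genes were beta forms, and 12 of the 28 were alpha forms. The compartments and numbers are those of the descriptions, most of which are transferred from related species, and no protein was measured.

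The study set leaf against petiole, with 3 libraries of each tissue, all of wild type genotype and all from plants in ordinary greenhouse growth. Plant age, cultivar and the number of plants behind a library were not given in the sources used here. Nothing in the labels tells whether each library is from another plant, so p-values measure only the spread between these libraries, which may be technical. Total RNA was depleted of ribosomal RNA and sequenced as stranded libraries, and the linear table held 111518411 to 132861243 estimated counts a library.

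Gene levels are given below as CPM, read counts set to a common library size after trimmed mean of M values (TMM) scaling, where tissues are compared, and as FPKM, which takes account of transcript length, where genes are compared within a tissue. Changes are log2 fold changes of petiole minus leaf from edgeR's quasi-likelihood test, called at an adjusted p below 0.05 over all 27984 genes with a mean of at least 10 counts. The RNA is from whole tissue, in which fewer cells of a type and less RNA per cell cannot be told apart. The marker lists followed the labels in that 23 of 24 tested chlorophyll a-b binding protein genes, which mark green mesophyll, were lower in petiole, and their summed level was 5927 to 6529 CPM in the leaf libraries and 533.7 to 582.4 CPM in the petiole libraries. Of 3 tested guard cell markers 2 were lower, with a sum of 10.0 to 13.4 CPM in leaf and 1.12 to 1.43 CPM in petiole. Both tested xylem markers were higher in petiole, the sums being 8.01 to 10.2 and 14.4 to 17.7 CPM. The sums for epidermis markers were 238.4 to 248.6 and 188.6 to 203.7 CPM, and those for phloem markers 490.7 to 510.3 and 303.1 to 315.1 CPM, with calls in both directions in each list.

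Calls were counted by the compartment in the descriptions, and they followed the enzyme class as well. Every called beta gene was lower, including both beta carbonic anhydrase 4 copies, whose descriptions name no compartment. Every called alpha gene was higher. No chloroplastic gene was higher in petiole and 4 of 5 were lower, whereas 5 of the 7 mitochondrial genes were higher and 2 were lower. Among the 16 other genes 8 could be tested, of which 5 were higher and 2 lower. In all, 20 of the 28 members passed the count minimum, 10 were higher and 8 lower. Across all tested genes 31.4% were called higher and 31.0% lower, so calls were frequent everywhere. Median log2 fold changes were -1.86 for the chloroplastic, 0.54 for the mitochondrial and 1.13 for the 8 tested other genes, or 0.44 for the 6 of these with reads in both tissues, beside 0.01 for all genes tested. The chloroplastic median is the value of the beta carbonic anhydrase 5-like gene on A06, which may hold reads of another gene. The leaf and petiole values did not overlap in 19 of the 20 tested members. That share was not computed for all tested genes, so it cannot be read as particular to the family. The 2 alpha carbonic anhydrase 2-like genes passed the minimum through their petiole counts alone, as they had no leaf read. They could thus be called only as higher, and they are among the 10 members and the 5 other genes called so. Several copies share a name, and how the counting treated reads that match more than 1 of them was not given in the sources used here, so values of same-named copies may share reads.

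**Figure D1:**
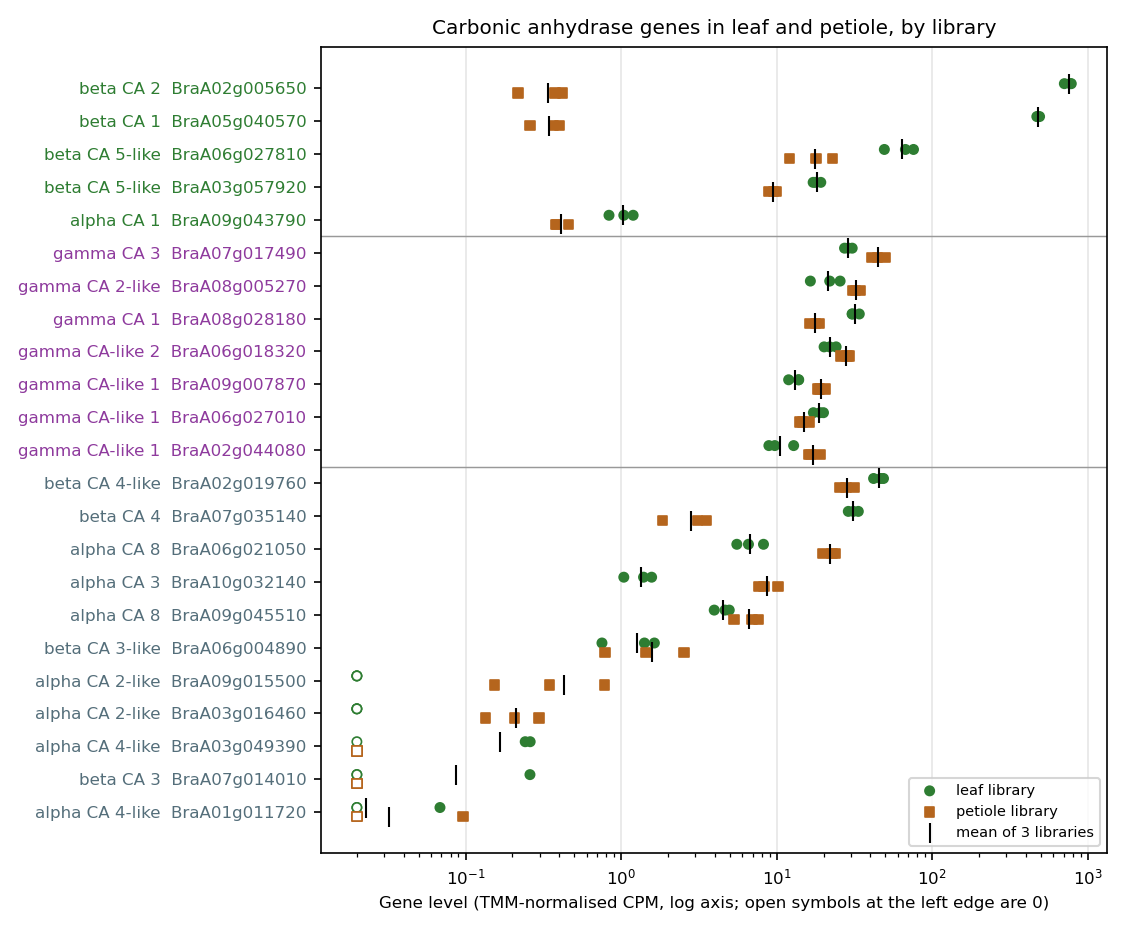
Level of each of the 23 carbonic anhydrase genes with any read, in CPM on a log axis, with a point for each leaf (green circles) and petiole (brown squares) library and a bar at the mean of 3. Names are green for chloroplastic, purple for mitochondrial and grey for other forms, and the leaf and petiole points of beta carbonic anhydrases 1 and 2 lie 1398-fold or more apart by their means, while the mitochondrial genes stay between 8.91 and 49.7 CPM in every library.

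The largest values and the largest differences belonged to beta carbonic anhydrases 1 and 2, which are counted as chloroplastic by their descriptions alone. Beta carbonic anhydrase 2 (BraA02g005650.3C, chromosome A02, plus strand, 2674642 to 2677016, 8 exons; positions as in the deposited table, whose genome build was not given in the sources used here) had 783.4, 707.1 and 771.7 CPM in the leaf libraries and 0.375, 0.418 and 0.217 CPM in the petiole libraries. All leaf libraries were far above all petiole libraries. The leaf mean of 754.1 ± 41.1 CPM (SD, n = 3) was 2238 times the petiole mean of 0.337 ± 0.106 CPM (SD, n = 3), and the log2 fold change was -11.11 (SE 0.16, adjusted p = 3.3e-09). The petiole values rest on 39, 41 and 20 reads.

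Beta carbonic anhydrase 1 (BraA05g040570.3C, A05, plus strand, 27493599 to 27497253, 9 exons), which in Arabidopsis acts in the chloroplast and in guard cells, had 489.8, 470.4 and 478.5 CPM in leaf and 0.260, 0.367 and 0.402 CPM in petiole. Its means were 479.6 ± 9.75 and 0.343 ± 0.0743 CPM (SD, n = 3 each), 1398 times apart, and the log2 fold change was -10.45 (SE 0.11, adjusted p = 1.57e-09). Leaf exceeded petiole in all libraries, and the 27, 36 and 37 petiole reads were of the same order as those of beta carbonic anhydrase 2.

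In leaf these were among the most abundant transcripts of any gene. On the FPKM scale beta carbonic anhydrase 2 had 376.6 ± 16.6 FPKM (SD, n = 3), rank 41 of 45517 genes, and beta carbonic anhydrase 1 had 131.7 ± 1.91 FPKM, rank 211. In petiole the same genes had 0.255 ± 0.0937 and 0.15 ± 0.0296 FPKM, ranks 25561 and 26610. Among the 1940 tested genes with at least 100 CPM in leaf, their log2 fold changes were the third and the sixth most negative. Over all 27984 tested genes, which include low ones, they ranked 64 and 100. The mesophyll marker sum given above was also lower in petiole, from a mean of 6239 to 557.1 CPM, and the part that mesophyll content had in the fall of these genes was not tested.

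The remaining chloroplastic genes were lower in level and differed less. A beta carbonic anhydrase 5-like gene on A03 (BraA03g057920.3C, plus strand, 30483920 to 30485677), named for a plastid form of Arabidopsis, had 17.2, 17.7 and 19.2 CPM in leaf and 8.90, 9.97 and 9.51 CPM in petiole. Its leaf libraries lay above its petiole libraries, with a log2 fold change of -0.93 (SE 0.10, adjusted p = 8.33e-05), and limma on log2(FPKM + 1) gave -0.14 without a call (adjusted p = 0.126) and, once library medians were set equal, -0.68 with one (adjusted p = 0.00013). The median change of all genes on the uncentred FPKM scale was 0.48, so values there read relative to it. The second beta carbonic anhydrase 5-like gene, on A06 (BraA06g027810.3C, minus strand, 19374664 to 19376360), had 49.2, 67.2 and 75.8 CPM in leaf and 17.9, 12.1 and 22.9 CPM in petiole, and the log2 fold change was -1.86 (SE 0.25, adjusted p = 0.00028). At least 95.7% of its FPKM in each library came from an assembled transcript of 3921 bases and 11 exons that runs over a neighbouring uncharacterized gene on the same strand (BraA06g027820.3C, A06, 19377952 to 19379331). That neighbour had 1747, 18 and 16 reads of its own in leaf and 890, 682 and 17 in petiole, so the value of this beta carbonic anhydrase 5-like gene may hold reads of another gene.

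Alpha carbonic anhydrase 1 (BraA09g043790.3C), whose Arabidopsis namesake reaches the chloroplast through the secretory route, was a low transcript with 0.836, 1.04 and 1.19 CPM in leaf and 0.385, 0.459 and 0.380 CPM in petiole. The libraries did not overlap and its log2 fold change was -1.32 (SE 0.50), but the adjusted p of 0.0503 missed the threshold. It was below the threshold under 5 alternatives, namely DESeq2 (adjusted p = 0.027), no TMM scaling (0.0484), a minimum of 50 counts (0.0255), the annotated structure alone (0.044) and FPKM with library medians set equal (0.00018). It stayed above with the replicate number as a block (0.145), no count filter (0.0542), all transcripts (0.0532) and limma on log2(FPKM + 1) (0.127) or log2(FPKM + 0.1) (0.156). The same held without leaf library 1, 2 or 3 or petiole library 1 (0.0617, 0.102, 0.125 and 0.0935). Setting medians equal removes a constant, which moved the change of this low gene on log2(FPKM + 1) from -0.16 to -0.70.

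Beta carbonic anhydrase 4, a plasma membrane form in Arabidopsis that works with beta carbonic anhydrase 1 in guard cells, had 2 expressed copies with unlike values. The copy on A07 (BraA07g035140.3C, minus strand, 24880759 to 24885471) had 33.5, 28.9 and 31.1 CPM in leaf and 3.53, 3.09 and 1.84 CPM in petiole. Each petiole library was well below each leaf library, the means being 31.1 ± 2.31 and 2.82 ± 0.878 CPM (SD, n = 3 each), and the log2 fold change was -3.46 (SE 0.23, adjusted p = 5.53e-06). The copy on A02 (BraA02g019760.3C, minus strand, 11362629 to 11365101) had 48.6, 46.7 and 42.0 CPM in leaf and 31.7, 27.9 and 25.3 CPM in petiole. Its log2 fold change of -0.69 (SE 0.10, adjusted p = 0.000492) became 0.17 on the log2(FPKM + 1) scale (limma adjusted p = 0.116) and -0.37, called lower, with library medians set equal (adjusted p = 0.00407). For the annotated transcript structure alone it was 0.14 and not called (edgeR adjusted p = 0.822). The guard cell marker sum, 12.1 ± 1.82 CPM in leaf and 1.28 ± 0.155 CPM in petiole (SD, n = 3 each), moved with the A07 copy, SLAC1 being at 0 in petiole, and its part in the result was not tested.

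Beta carbonic anhydrase 3, a cytosolic form in Arabidopsis, was scarce. The 3-like gene on A06 (BraA06g004890.3C) had 1.41, 0.753 and 1.64 CPM in leaf and 0.788, 2.53 and 1.45 CPM in petiole, with overlapping tissues and no call (log2 fold change 0.33, SE 0.52, adjusted p = 0.613). The gene on A07 (BraA07g014010.3C) had 18 reads in 1 leaf library and none in the other 5 libraries, and the gene on A09 (BraA09g039520.3C) had none in any.

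The mitochondrial gamma genes ranged from 5.51 to 15.1 FPKM in leaf and from 11.5 to 39.7 FPKM in petiole by their means, and 5 of 7 were higher in petiole, with log2 fold changes of 0.34 to 0.71 by edgeR. The 3 genes named gamma carbonic anhydrase keep the metal-binding residues of the enzyme in Arabidopsis, and the 4 named gamma carbonic anhydrase-like are related complex I subunits that lack some of them. In the deposited annotation all 7 had a complex I term, 3 had an enzyme term and none had an enzyme number, whereas all 9 beta genes had both an enzyme term and an enzyme number.

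Gamma carbonic anhydrase 3 (BraA07g017490.3C, A07, plus strand, 15077021 to 15078352) had 30.6, 27.3 and 28.9 CPM in leaf and 40.7, 49.7 and 44.5 CPM in petiole. Petiole was above leaf in every library, with a log2 fold change of 0.64 (SE 0.09, adjusted p = 0.000452), and at 39.7 ± 3.97 FPKM (SD, n = 3) it was the most abundant member in petiole. The gamma carbonic anhydrase 2-like gene (BraA08g005270.3C) had 16.5, 25.6 and 21.9 CPM in leaf and 30.7, 32.2 and 34.7 CPM in petiole, and the log2 fold change was 0.61 (SE 0.15, adjusted p = 0.00883). Its annotated structure alone held 0 to 20 reads a library, and the change for that structure was -0.75 and not called (adjusted p = 0.735). Gamma carbonic anhydrase 1 (BraA08g028180.3C) went the other way, with 34.0, 30.5 and 30.6 CPM in leaf and 18.8, 17.7 and 16.4 CPM in petiole. Its log2 fold change was -0.85 (SE 0.09, adjusted p = 7.01e-05), and limma on log2(FPKM + 1) gave -0.09 without a call (adjusted p = 0.314) and -0.63 with one when library medians were set equal (adjusted p = 0.000191).

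Among the gamma carbonic anhydrase-like genes, number 2 (BraA06g018320.3C) had 21.9, 20.2 and 24.1 CPM in leaf and 25.9, 29.4 and 28.3 CPM in petiole. Its log2 fold change of 0.34 (SE 0.09, adjusted p = 0.0146) was not called without petiole library 2 (0.30, adjusted p = 0.0528). The 3 copies of gamma carbonic anhydrase-like 1 were called in both directions. The A02 copy (BraA02g044080.3C) had 9.72, 8.91 and 12.9 CPM in leaf and 16.5, 16.1 and 19.0 CPM in petiole, and the A09 copy (BraA09g007870.3C) had 13.9, 11.9 and 13.8 and then 18.8, 18.5 and 20.4 CPM. Both rose, with log2 fold changes of 0.71 (SE 0.16, adjusted p = 0.00446) and 0.54 (SE 0.10, adjusted p = 0.0019).

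The A06 copy (BraA06g027010.3C) had 17.2, 19.0 and 19.99 CPM in leaf and 14.6, 16.1 and 14.1 CPM in petiole. Its log2 fold change of -0.33 (SE 0.10, adjusted p = 0.0222) was 0.39 on the log2(FPKM + 1) scale (limma adjusted p = 0.00304), which lies below the median of all genes there, and -0.15 without a call when library medians were set equal (adjusted p = 0.137). Without leaf library 2, leaf library 3, petiole library 1 or petiole library 3 it was not called, the adjusted p being 0.0548, 0.063, 0.0626 and 0.0687.

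**Figure D2:**
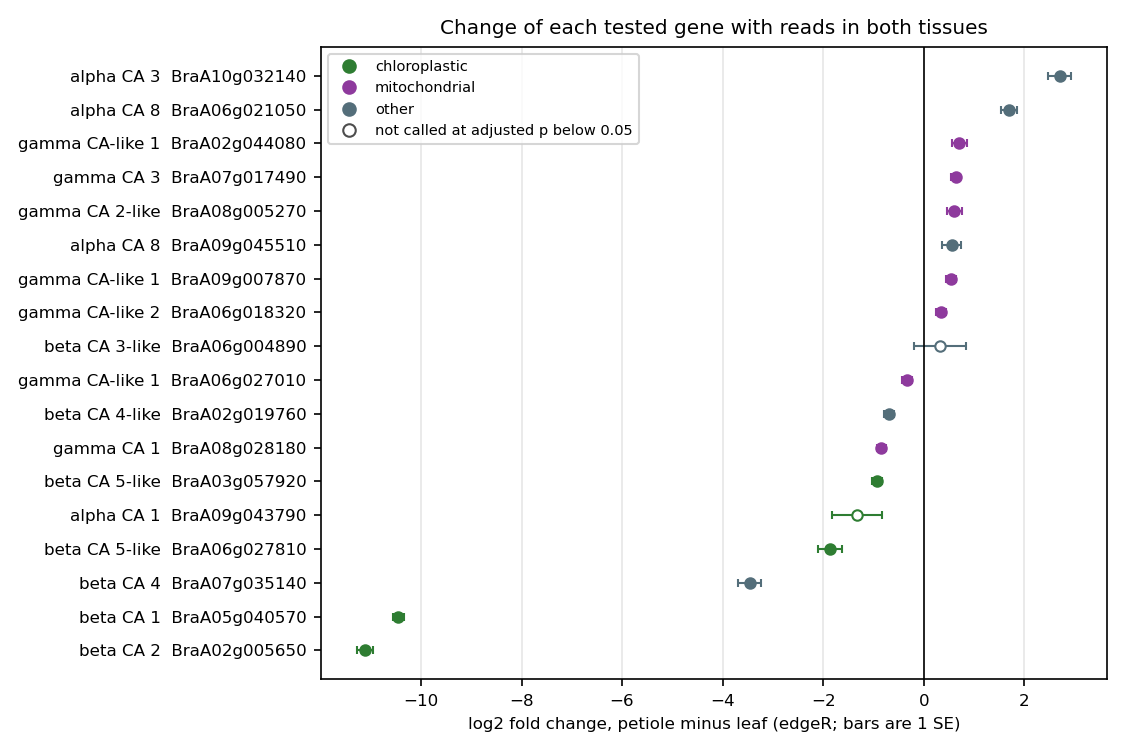
Log2 fold change, petiole minus leaf, of the 18 tested genes with reads in both tissues, from edgeR with bars of 1 SE and 3 libraries a tissue. Filled points were called and open points were not, and colours mark the compartment in the description: beta carbonic anhydrases 2 and 1 stand at -11.11 and -10.45, the other chloroplastic genes at -1.86 to -0.93, and the mitochondrial genes at -0.85 to 0.71, of which the gamma carbonic anhydrase-like 1 copy on A06 changes sign on the uncentred FPKM scale.

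Outside the chloroplastic group, the tested alpha genes with reads in both tissues, namely number 3 and both copies of number 8, were called higher in petiole. The 2 genes named 2-like were also called higher, from few reads. They passed the count minimum through petiole alone, so no other call was open to them. Alpha carbonic anhydrase 3 (BraA10g032140.3C, A10, plus strand, 19954817 to 19956218) had 1.57, 1.04 and 1.39 CPM in leaf and 8.29, 7.69 and 10.2 CPM in petiole, 6.54 times as much on average. All petiole libraries were above all leaf libraries, and the log2 fold change was 2.71 (SE 0.23, adjusted p = 1.94e-05). Alpha carbonic anhydrase 8 on A06 (BraA06g021050.3C, minus strand, 12251532 to 12252038), a gene of 1 exon and 507 bases, had 8.23, 5.54 and 6.58 CPM in leaf and 19.8, 22.7 and 23.8 CPM in petiole. Its libraries did not overlap, and with a log2 fold change of 1.70 (SE 0.16, adjusted p = 3.78e-05) it reached 29.3 ± 2.56 FPKM in petiole (SD, n = 3), second in the family there.

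The alpha carbonic anhydrase 8 copy on A09 (BraA09g045510.3C, plus strand, 34771890 to 34772390), also of 1 exon, had 4.96, 4.65 and 3.97 CPM in leaf and 6.94, 7.65 and 5.32 CPM in petiole. Its log2 fold change of 0.55 (SE 0.19, adjusted p = 0.036) was not called without leaf library 2, leaf library 3, petiole library 1 or petiole library 2, with adjusted p of 0.0695, 0.1, 0.0935 and 0.122. Neither copy had an enzyme term or an enzyme number in the deposited annotation, unlike the other 10 alpha genes.

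Both alpha carbonic anhydrase 2-like genes were read in petiole only, and faintly. BraA09g015500.3C had 16, 34 and 72 petiole reads and BraA03g016460.3C had 14, 29 and 19, with 0 in every leaf library. Against a floor of 3 reads over the 3 leaf libraries they were at least 30.3-fold and at least 15.1-fold higher in petiole. Their adjusted p-values of 0.00762 and 0.0133 rose to 0.0538 and 0.111 with the replicate number as a block.

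The other alpha genes were near or at 0. An alpha carbonic anhydrase 4-like gene on A03 (BraA03g049390.3C) had 0, 19 and 17 reads in leaf and none in petiole, and that on A01 (BraA01g011720.3C) had 5 reads in 1 leaf library and 10 in 1 petiole library. Both were below the count minimum and were not tested. Alpha carbonic anhydrase 5 and the 2 alpha carbonic anhydrase 7-like genes, which lie in a group on A06 between 3143675 and 3169925, and alpha carbonic anhydrase 2 on A07 had no read in any library. With 3 counts as the floor, a total of 0 over a tissue allows up to 0.0141 CPM in leaf and 0.0102 CPM in petiole, counting error only.

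The composition of the carbonic anhydrase transcript pool followed from these levels. The summed level of the 28 genes was 634.1 ± 20.2 FPKM in leaf and 222.9 ± 7.57 FPKM in petiole (SD, n = 3 each). In leaf the chloroplastic genes held 82.5 ± 0.222% of it, the mitochondrial genes 11.0 ± 0.403% and the others 6.48 ± 0.295%. Petiole had 4.82 ± 0.336% chloroplastic, 64.1 ± 0.614% mitochondrial and 31.1 ± 0.757% other. Beta carbonic anhydrases 1 and 2 together made up 80.2 ± 0.487% of the leaf sum and 0.182 ± 0.0339% of the petiole sum. On the CPM scale, which does not divide by length, the sums were 1554 ± 51.5 in leaf and 273.4 ± 7.37 in petiole, and the chloroplastic sum was 1317 ± 46.2 against 28.2 ± 5.07 CPM. Of the petiole chloroplastic sum, 17.6 ± 5.42 CPM was that of the beta carbonic anhydrase 5-like gene on A06, with the limit given above. The mitochondrial sum was 146.5 ± 4.99 CPM in leaf and 174.4 ± 7.30 CPM in petiole, and on the FPKM scale, which puts the petiole higher for most genes, it was 69.7 ± 2.51 and 142.9 ± 5.91. These sums are descriptions without a test. The sums and shares cover the 28 members only and leave out genes annotated as the enzyme by other means, described below. Of those, BraA05g020740.3C had a mean of 11.6 FPKM in leaf and 25.7 FPKM in petiole.

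**Figure D3:**
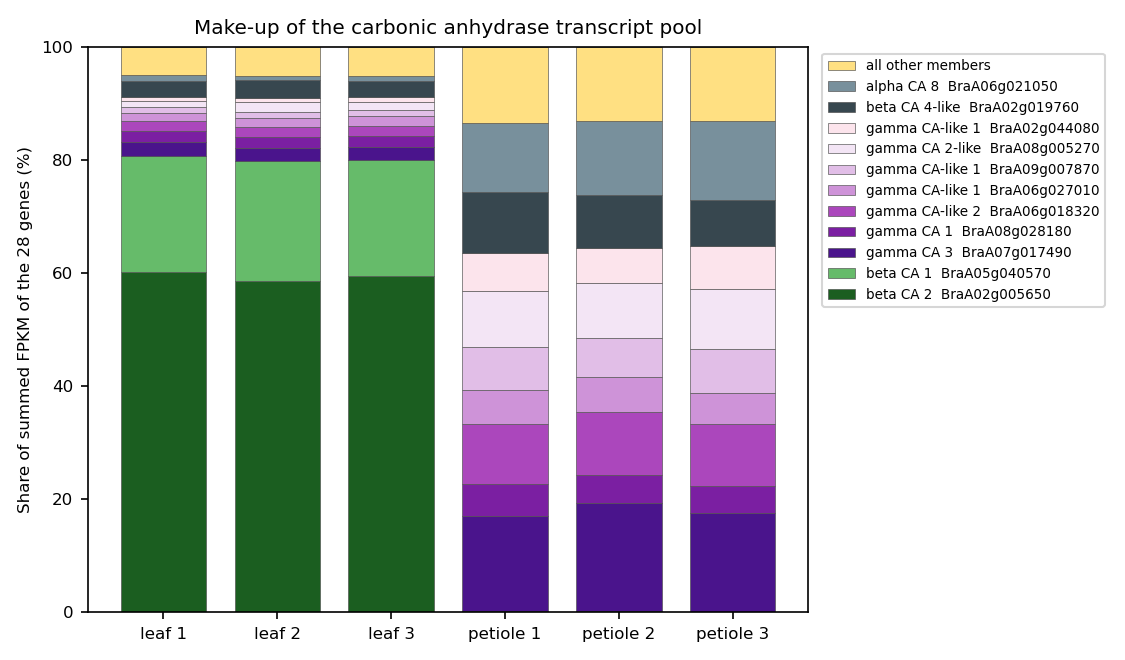
Share of the summed FPKM of the 28 carbonic anhydrase genes, in percent, held by each gene with at least 5% in any library, for the 3 leaf and 3 petiole libraries. Beta carbonic anhydrases 2 and 1 fill 80.2% of the leaf bars on average and 0.182% of the petiole bars, where no gene dominates.

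The order of levels within a tissue changed accordingly. In leaf, beta carbonic anhydrase 2 and beta carbonic anhydrase 1 were followed by the beta carbonic anhydrase 4-like gene on A02 (18.4 ± 0.798 FPKM) and gamma carbonic anhydrase 3 (15.1 ± 0.708 FPKM), each apart from the next in all libraries. Below them beta carbonic anhydrase 4 on A07 (12.5 ± 1.10 FPKM), gamma carbonic anhydrase 1 (12.3 ± 0.812 FPKM) and gamma carbonic anhydrase-like 2 (11.4 ± 0.954 FPKM) had overlapping values and cannot be ordered. The petiole order began with gamma carbonic anhydrase 3 and alpha carbonic anhydrase 8 on A06, each apart from the next. Gamma carbonic anhydrase-like 2 (24.3 ± 1.51 FPKM), the gamma carbonic anhydrase 2-like gene (22.5 ± 1.25 FPKM) and the beta carbonic anhydrase 4-like gene on A02 (20.8 ± 2.41 FPKM) overlapped with their neighbours. The beta carbonic anhydrase 4-like gene was thus the most abundant beta member in petiole.

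Genes of the same name are copies in a genome with an ancient triplication, and their ratio within a library does not depend on how libraries are scaled. Of 6 pairs compared, 5 had ratios that did not overlap between the tissues, each with the smallest p that an exact two-sided permutation test of 3 against 3 libraries allows (p = 0.1, 0.12 after Benjamini-Hochberg adjustment over the 6 pairs), so no pair could pass a threshold of 0.05. The share without overlap was not computed for other gene pairs, so it cannot be read as particular to the family. The pairs of gamma carbonic anhydrase-like 1 copies share genes and are not independent. The log2 ratio of beta carbonic anhydrase 4 on A07 to that on A02 was -0.56 ± 0.173 in leaf and -3.86 ± 0.34 in petiole (SD, n = 3 each), a difference of -3.30, which was -2.82 with counts in place of FPKM. Alpha carbonic anhydrase 8 on A09 to that on A06 had -0.55 ± 0.278 and -1.73 ± 0.357, a difference of -1.18. Among the gamma carbonic anhydrase-like 1 copies, A06 to A02 went from 0.85 ± 0.23 in leaf to -0.20 ± 0.219 in petiole, so the more abundant copy was on A06 in leaf and on A02 in 2 of 3 petiole libraries.

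The log2 ratio of A09 to A06 for the same gene was -0.56 ± 0.182 in leaf and 0.31 ± 0.17 in petiole. Only A09 to A02 overlapped between tissues, with 0.29 ± 0.216 and 0.11 ± 0.053 (exact permutation p = 0.4). The beta carbonic anhydrase 5-like genes, A06 to A03, had -0.25 ± 0.247 and -1.26 ± 0.515, with the limit on the A06 gene given above.

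**Figure D4:**
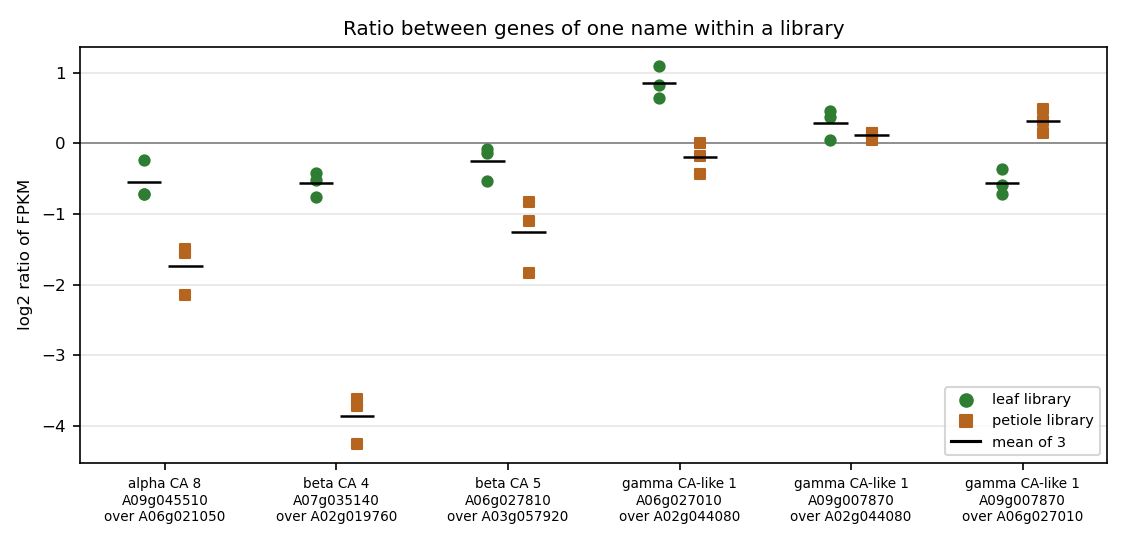
Log2 ratio of FPKM between genes of the same name, for 6 pairs, with a point for each leaf (green) and petiole (brown) library and a line at the mean of 3. The groups are apart in 5 pairs and overlap for gamma carbonic anhydrase-like 1 on A09 over A02, and the widest gap is that of beta carbonic anhydrase 4, from -0.56 to -3.86.

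The deposited table lists 40 transcripts under the 28 genes, namely 28 with the annotated structure, 11 assembled alternatives that share a splice junction with the gene, and 1 that only overlaps it. Of 32 that could be tested, 9 were higher in petiole and 12 lower, against 15.4% and 14.1% of all 52982 tested transcripts. The annotated structures had 7 higher and 4 lower of 20 tested, and the alternatives 2 higher and 8 lower of 11 tested. Shares by class were not computed for all transcripts. Only some of the genes have an alternative, so the classes cover different genes. Splitting of reads between overlapping transcripts is an estimate of the assembler, so values of single transcripts are less certain than those of genes.

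For beta carbonic anhydrase 1, nearly all reads lay in assembled alternatives. The annotated structure had 26, 26 and 23 reads in leaf, whereas an alternative of 9 exons and 1562 bases (MSTRG.15254.1) held 50.8% to 62.3% of the FPKM of the gene in leaf. A second alternative, of 10 exons and 1305 bases (MSTRG.15254.2), had 12465, 11497 and 15010 reads in leaf and none in petiole. Both ends of the alternatives lie outside the annotated gene, from 27493504 to 27497715. With the annotated structure alone the gene missed the threshold (log2 fold change -3.82, adjusted p = 0.0609). Beta carbonic anhydrase 2 differed in that its annotated structure held 86.6% to 88.8% in leaf.

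Beta carbonic anhydrase 4 on A07 also had a structure read in leaf alone. Its annotated structure had 1429, 1048 and 1173 reads in leaf and none in petiole, while the alternative MSTRG.21003.1, of 10 exons and 1280 bases, had 895, 1061 and 1012 in leaf and 367, 303 and 169 in petiole. That alternative fell with a log2 fold change of -2.25 (SE 0.29, adjusted p = 0.0037). For the beta carbonic anhydrase 4-like gene on A02, the alternative MSTRG.4426.1 fell by 1.17 on the log2 scale (SE 0.28, adjusted p = 0.0288), and the annotated structure, with a change of 0.20 (SE 0.43, adjusted p = 0.778), was not called. No back-spliced circular RNA of the 886 in the circular RNA table had a carbonic anhydrase gene as host or overlapped one.

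**Figure D5:**
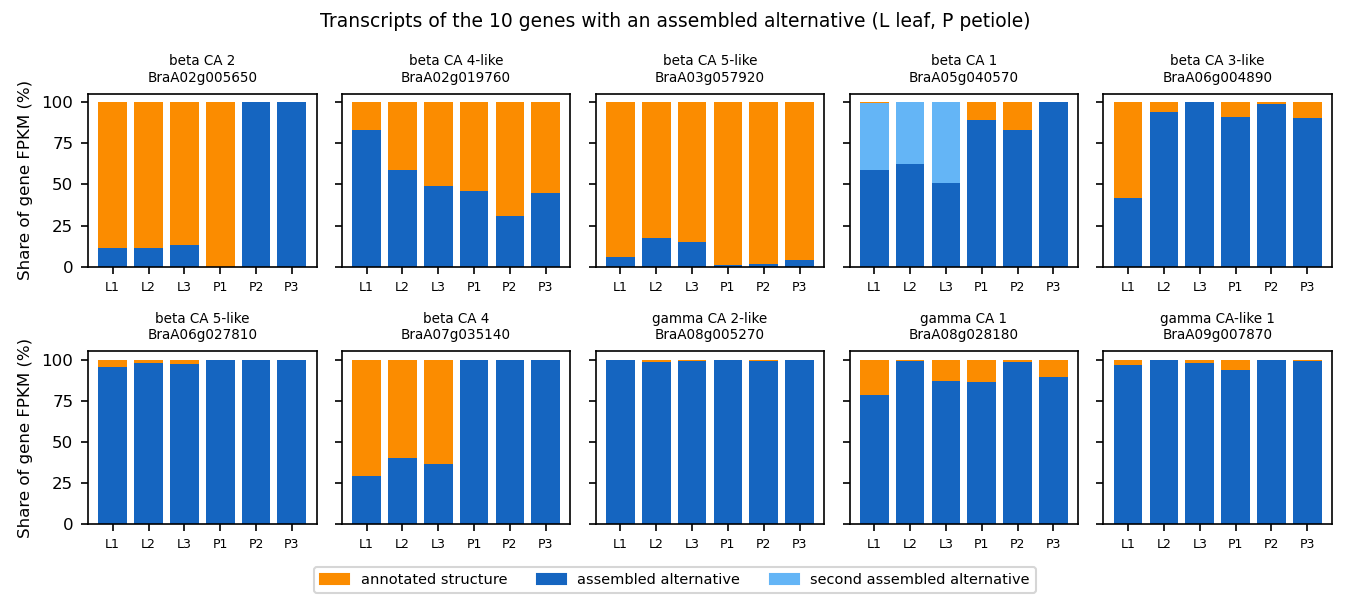
Share of the FPKM of a gene, in percent, held by the annotated structure (orange) and assembled alternatives (blue) in leaf (L) and petiole (P) libraries, for the 10 genes with an alternative. Beta carbonic anhydrase 4 on A07 shows the annotated structure in leaf libraries alone, and the petiole bars of beta carbonic anhydrase 2 rest on 39, 41 and 20 reads.

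Genes that work around the enzyme were read from lists of descriptions. The calls in each list stand beside 31.4% higher and 31.0% lower among all tested genes. Rubisco fixes the carbon dioxide of the chloroplast and Rubisco activase restores its activity, and the list of Rubisco small chains and activase had 8 of 8 tested genes lower in petiole. Their median log2 fold change was -5.98, and their sums were 5240 ± 86.2 CPM in leaf and 162.1 ± 6.0 CPM in petiole. A small chain 1B gene (BraA02g017420.3C) was at 0 in petiole and at least 1030-fold lower, and small chain F1 (BraA07g019510.3C) changed by -10.59 (SE 0.11, adjusted p = 1.47e-09). Phosphoenolpyruvate carboxylase takes bicarbonate as its substrate, and 4 of its 5 tested genes were higher in petiole with none lower by edgeR. With library medians set equal, limma on log2(FPKM + 1) called 4 higher and 1 lower. The summed level of that enzyme was 290.6 ± 8.06 CPM in leaf and 521.5 ± 8.63 CPM in petiole. Its 4-like gene (BraA09g038190.3C) changed by 2.70 (SE 0.21, adjusted p = 1.16e-05) and its gene 3 (BraA03g036720.3C) by 1.73 (SE 0.19, adjusted p = 9.64e-05).

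Other carboxylases that use bicarbonate had 3 higher and 4 lower among 12 tested, near the shares of 31.4% and 31.0% among all genes. With library medians set equal, 5 were higher and 3 lower by limma on log2(FPKM + 1). Methylcrotonoyl-CoA carboxylase beta chain (BraA08g016260.3C), of leucine breakdown, fell by 2.10 on the log2 scale (SE 0.05, adjusted p = 2.38e-08). Biotin carboxyl carrier protein 2 (BraA03g006900.3C), of fatty acid synthesis, rose by 1.91 (SE 0.43, adjusted p = 0.00503).

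Other subunits of complex I, to which the gamma forms belong, were listed where the description named NADH dehydrogenase [ubiquinone]. Of 44 tested, 18 were higher and 3 lower, with a median log2 fold change of 0.27, where 31.4% and 31.0% of all genes were. The 7 gamma genes had 5 higher and 2 lower. With library medians set equal, limma on log2(FPKM + 1) called 24 of those subunits higher and 1 lower. Subunit 9 of the alpha subcomplex (BraA09g056250.3C) changed by 0.85 (SE 0.11, adjusted p = 0.000203) and subunit 8 of the beta subcomplex (BraA06g041010.3C) by -0.42 (SE 0.09, adjusted p = 0.00343). The sum of the list was 831.7 ± 24.8 CPM in leaf and 957.5 ± 18.5 CPM in petiole.

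Plasma membrane intrinsic protein (PIP) aquaporins conduct water, and some of them carbon dioxide. Of 21 tested, 17 were higher in petiole and 1 was lower, with a median of 1.15. PIP2-2-like (BraA03g019370.3C) had 11.1, 11.9 and 9.94 CPM in leaf and 176.5, 194.6 and 196.9 CPM in petiole, and the log2 fold change was 4.11 (SE 0.09, adjusted p = 1.19e-08). PIP2-4 (BraA02g010230.3C) was the exception, at 0 in petiole and at least 67.0-fold lower.

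The stomatal carbon dioxide signalling genes, some of which act downstream of beta carbonic anhydrases 1 and 4 in Arabidopsis guard cells, had 11 higher and 11 lower of 35 tested. These shares are close to the 31.4% and 31.0% of all genes. With library medians set equal, limma on log2(FPKM + 1) called 14 higher and 16 lower. A gene described as HT1 (BraA05g015530.3C), a kinase that restrains closing, rose by 4.49 on the log2 scale (SE 0.32, adjusted p = 6.86e-06). Its name rests on that description, and whether it acts in stomata here was not tested. MPK12 (BraA05g005690.3C), which inhibits HT1, and the anion channel SLAC1 (BraA06g009180.3C) were at 0 in all petiole libraries and at least 677-fold and at least 627-fold lower. Among the 28 carbonic anhydrase genes, 3 carried a stomatal movement term, namely beta carbonic anhydrase 1 and both beta carbonic anhydrase 4 copies, and all were lower in petiole, with the values on the FPKM scales given above for the A02 copy.

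By the likeness of log2(CPM + 1) over the 6 libraries, the genes nearest to beta carbonic anhydrase 2 were phosphomethylpyrimidine synthase (BraA05g014550.3C), of thiamine synthesis, the chloroplast chaperone ClpC1 (BraA03g015750.3C) and glyceraldehyde-3-phosphate dehydrogenase GAPA2 (BraA06g008890.3C) of the Calvin cycle, with Pearson coefficients of 0.999996, 0.999979 and 0.999943. The measure does not see size: ClpC1, for instance, had 716.9, 695.0 and 706.6 CPM in leaf and 131.9, 134.2 and 129.6 CPM in petiole. Of 19568 genes compared, 1800 had a Pearson coefficient of at least 0.99 with beta carbonic anhydrase 2, since in 6 libraries the measure mostly records a difference between the tissues.

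The rule on descriptions left out 14 genes to which the deposited annotation gives the enzyme by other means, 9 by an ontology term and 5 by an enzyme number alone. Of the latter, BraA06g030010.3C, BraA07g002990.3C and BraA09g011150.3C had no read and are described as protein WUSCHEL-like. Their enzyme number may therefore be an error of annotation. These were looked up after the tables had been seen. Among 8 that could be tested, 5 were lower and 2 higher in petiole, beside 31.0% lower and 31.4% higher among all tested genes. Of the 5 lower genes, BraA01g004520.3C and BraA02g001290.3C had the enzyme number alone. BraA01g044810.3C (A01, 29518958 to 29521894), which carries a stroma term, had 1803, 2192 and 2121 reads in leaf, a mean of 28.7 ± 2.37 CPM (SD, n = 3), and none in petiole. BraA01g027230.3C, with a mitochondrion term, had 42.0 ± 3.33 CPM in leaf and 4.54 ± 0.512 CPM in petiole (SD, n = 3 each), and the log2 fold change was -3.21 (SE 0.12, adjusted p = 1.83e-07).

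BraA05g020740.3C, also with a mitochondrion term, rose by 0.39 (SE 0.09, adjusted p = 0.00698), and BraA06g004880.3C, which lies beside the beta carbonic anhydrase 3-like gene on A06 at 2924004 to 2926072, rose by 0.98 (SE 0.15, adjusted p = 0.000734). The rule on descriptions thus gives fewer genes than the annotation as a whole, though not every gene so annotated need be a carbonic anhydrase.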

How the data were processed

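The 6 libraries were grouped as leaf or petiole by their titles. Per the file headers, the authors deposited estimated counts and FPKM for each linear transcript, and a separate table with counts of back-spliced reads for circular RNAs. HISAT2, StringTie and TopHat are named, without versions or roles, in the submitters' processing notes. The genome build was not given in the sources used here. The estimated counts are whole numbers and were used as deposited. In the deposited FPKM columns 0.0001 stands for 0 and was set to 0.

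Counts were summed per gene over transcripts of class =, j or c, tested with edgeR 4.0.16 (R 4.3.3) where the mean was at least 10 counts, and adjusted by Benjamini-Hochberg over all 27984 genes, or 52982 transcripts. The SE is the absolute log2 fold change over the square root of F. DESeq2 1.42.0 and limma 3.58.1 on log2(FPKM + 1) were alternatives. On that scale the median change of all genes is 0.48, and changes read relative to it. Exact permutation tests used SciPy 1.17.1. The edgeR step was tested on simulated data. Tested-gene counts ran from 68059046 to 72702335 in leaf and from 92608004 to 104006517 in petiole. The members and gene lists were chosen with earlier results of these data known. All 28 members are accounted for, and from each list the text names genes among the up to 2 with the largest change in each direction among those called. Same-numbered leaf and petiole libraries did not deviate together (correlations 0.003, 0.003 and -0.003), so they were not paired. No sequences of the genes were used here.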

Additional observations from a re-analysis of the deposited data

Results flagged for a closer look

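A transcript that was left out of the gene values carried reads in both tissues. MSTRG.27125.1 (A09, 34771643 to 34773283, 2 exons, 1367 bases) overlaps the alpha carbonic anhydrase 8 gene on A09, which has 1 exon and thus no splice junction to share. The leaf libraries held 328, 311 and 401 of its reads and the petiole libraries 688, 645 and 536, which is 3.29 ± 0.496 and 4.43 ± 0.334 CPM of all tested transcripts (SD, n = 3 each). Its change was not called (log2 fold change 0.43, SE 0.20, edgeR adjusted p = 0.185). It was picked out because its reads belong to no gene value of the main fit. With all transcripts under the name counted, the gene had a log2 fold change of 0.47 (edgeR adjusted p = 0.0124), against 0.55 in the main fit (edgeR adjusted p = 0.036).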

How the results depend on the processing

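Of 318 gene changes recomputed under the alternatives, 281 kept their direction and side of the threshold, 21 lost the call, 5 gained it and 11 changed sign. The sign changes were BraA02g019760.3C (0.14 for class = only, 0.17 and 0.17 on FPKM with pseudocounts of 1 and 0.1), BraA06g027010.3C (0.39 and 0.42 on FPKM), BraA08g005270.3C (-0.75 for class = only), and BraA03g016460.3C and BraA09g015500.3C (-0.29 and -0.13 on FPKM with medians set equal, an alternative added after seeing the data). The last 2 have no leaf read, so these negative values come from the constant removed and say nothing of their direction. BraA06g004890.3C, never called, was -1.84 for class = only, -0.12 with medians set equal and -0.18 to 0.65 without 1 library. Of 288 transcript changes 4 changed sign, none called: the annotated structures of BraA09g007870.3C (-0.10 with the replicate block, -1.27 to 1.41 without 1 library), BraA02g019760.3C (-0.14 to 0.48) and BraA06g004890.3C (-2.38 to 1.79). FPKM gave 4 members lower in place of 8 with either pseudocount, and 16497 and 16560 genes higher and 4257 and 4269 lower in place of 8787 and 8683. With medians set equal it gave 9 members lower, and 9251 genes higher and 10223 lower. In the listed groups FPKM without that step gave 93 and 92 higher and 16 and 16 lower, in place of 53 and 27. With class = only, 5 members were lower, 5065 genes higher and 4888 lower, and 35 listed genes higher, with 20 members and 25854 genes tested. The member median of 0.33 was -0.001 over the 18 genes with reads in both tissues, -0.008 at a minimum of 50 counts, -0.092 for class = only, 0.96 on log2(FPKM + 0.1), -0.14 with medians set equal and 0.058 to 0.454 without 1 library. The chloroplastic share was 84.7% in leaf and 10.3% in petiole by CPM, 83.9% and 5.78% for class = only, and 84.5% and 10.1% with all transcripts, against 82.5% and 4.82%. The log2 ratio of the beta carbonic anhydrase 4 copies changed by -2.82 with counts. The cause was not tested.

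With the replicate number as a block, which the data did not bear out as a pairing, 8148 genes were higher and 8166 lower, 8 members were higher and 8 lower, and 2 member transcripts were higher in place of 9. Without 1 library, 4 to 7 member transcripts were higher and 10 to 11 lower, the lowest number higher coming without petiole library 1, 2 or 3. Without 1 library, 8 to 10 members were higher and 7 to 8 lower. Low counts limit alpha carbonic anhydrases 1 and 2-like, beta carbonic anhydrase 3 and the petiole levels of beta carbonic anhydrases 1 and 2.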
